A study of Mus musculus with 4 samples.

Results

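The genes described here are 40 interferon-stimulated genes, taken by gene symbol from a fixed list and found, all 40, among the 55401 genes of the count files. They were measured by RNA-seq in B220+ B cells sorted from the spleen of C57BL/6J mice, in 2 libraries of NSD1B WT (Mb1-Cre+ NSD1+/+) and 2 libraries of NSD1B KO (Mb1-Cre+ NSD1fl/fl). Both genotypes carry Mb1-Cre, a recombinase driven by the promoter of the B cell gene *Cd79a*, so they differ by the floxed *Nsd1* allele, from which Cre removes an internal block of exons in the B lineage. *Nsd1* encodes a histone methyltransferase, and B220 is the CD45 isoform typical of mouse B cells. The study used young adult mice with littermate controls, and which mice, and how many, went into a library is not given in the sources used here. If both libraries of a genotype come from a single preparation, the p-values below measure technical spread only.

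Interferons are secreted when cells sense viral or bacterial nucleic acids. They bind receptors that act through the kinases JAK1, JAK2 and TYK2, and type I interferon drives a complex that holds STAT2 and IRF9 onto a promoter element called ISRE. Interferon gamma acts on a different element, GAS. The genes switched on in this way sense foreign RNA and DNA, degrade or bind viral RNA, tag proteins with the ubiquitin-like protein ISG15, and attack the vacuoles of intracellular microbes. Resting B cells carry a low tonic level of many of them.

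Counts on genes ranged from 6769118 to 7566834 per library. *Nsd1* had 497 and 480 counts in NSD1B WT and 284 and 280 in NSD1B KO, at a log2 fold change of -0.74. The counts cover the whole gene, so this checks the labels only weakly. Levels are given as CPM, counts divided by the TMM-scaled library size and expressed per 1e+06. Summed markers of B cells were the highest of 7 marker lists in each library, at 11202 to 12936 CPM, and 6 of the 8 markers were lower in NSD1B KO. *Pax5* fell by 3.29 on the log2 scale. Markers of other cells were present as well. The 12 markers of macrophages, monocytes and neutrophils summed to 4822 and 4914 CPM in NSD1B WT and 6326 and 5966 in NSD1B KO, most of it *Lyz2*. Of the 12, 5 were higher in NSD1B KO and 3 lower, *Itgam*, *C1qa* and *S100a8*, while *Ly6g*, *Mpo* and *Camp* were at 0 in all 4 libraries. The 6 erythroid markers rose from 39.6 and 35.6 CPM to 1944 and 1690. The 11 markers of plasmacytoid dendritic cells, which also carry B220 and make interferon, summed to 102 and 104 CPM in NSD1B WT and 205 and 207 in NSD1B KO. Of these, 6 were at 0 in all 4 libraries, among them the defining *Siglech*. *Tcf4*, also a B cell gene, and *Ly6c2*, also a monocyte gene, gave most of the sum and were higher in NSD1B KO. Others of the list went the other way, *Runx2* from 40 and 38 counts in NSD1B WT to 0 and 0, and *Ccr9* from 3 and 5 to 0 and 0. The part of these other cells in the values below was not tested, and in sorted bulk samples fewer cells of a type and less RNA per cell cannot be told apart.

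**Figure D1:**
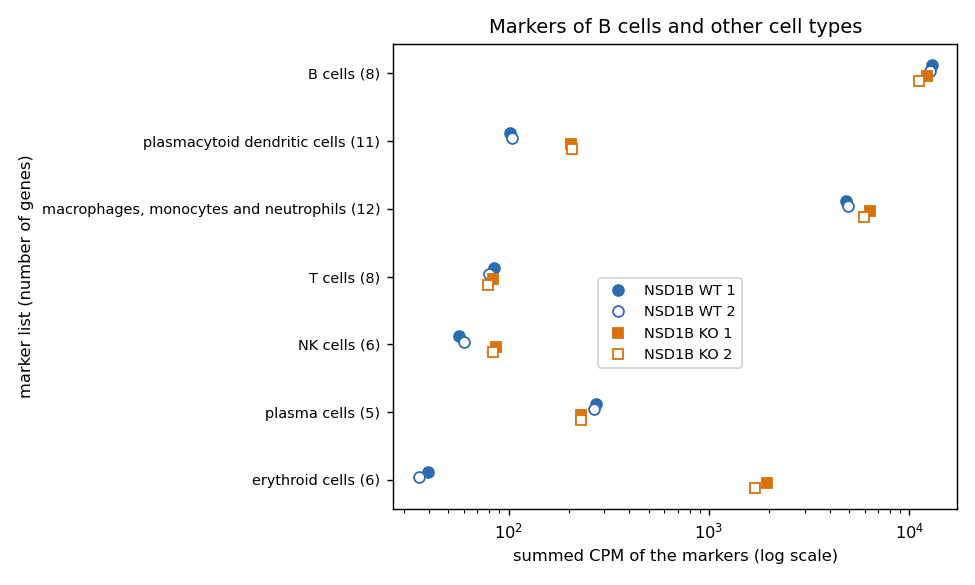
Summed CPM (TMM-scaled, log axis) of 7 lists of marker genes, with 1 point for each library (circles NSD1B WT, squares NSD1B KO). Erythroid markers differ most between the genotypes, and B cell markers are the highest in all 4 libraries.

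The promoter element through which type I interferon acts can be seen in the reference sequence of these genes. RefSeq promoters (GRCm38.p6, 250 bases before to 50 after a start site) were found for 28 of the 40 genes. The core motif, GAAA followed by any 2 bases and GAAA again, read on both strands so that TTTC, 2 bases and TTTC count too, stood in 15 of the 28 (53.6%), against 3.99% of 27025 genes with a promoter in the table. The GAS letters TTCNNNGAA stood in 9 (32.1%), against 9.55%. The core motif was found in 4 of 9 members that were higher in NSD1B KO, in 7 of 12 that were lower and in 2 of 4 tested members that passed in neither direction. The GAS letters stood in 5 of these 9, 3 of these 12 and 1 of these 4. Among all tested genes with a promoter the shares were 3.99% for the core motif and 8.12% for the GAS letters. Differences between these groups were not tested. The stretches below are shown because some genes counted higher and some counted lower hold the core motif upstream. All end at or before the RefSeq start site, capitals mark the core motif on either strand, and capital runs of over 10 bases hold overlapping matches. *Isg15* (chr4:156200860-156200911, minus strand), *Ifit3* (chr19:34583358-34583431, plus) and *Oas3* (chr5:120777710-120777749, minus) had no count in NSD1B KO. The sum of *Ifit3* and its near copy *Ifit3b* was higher in NSD1B KO. *Oas1a* (chr5:120907526-120907560, minus) had no count in NSD1B WT. *Gbp3* (chr3:142559984-142560029, plus) and *Bst2* (chr8:71537572-71537617, minus) were higher in NSD1B KO, and *Gbp7* (chr3:142530268-142530307, plus) and *Irgm1* (chr11:48871421-48871465, minus) were lower.
Isg15: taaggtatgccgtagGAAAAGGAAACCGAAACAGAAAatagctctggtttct
Ifit3: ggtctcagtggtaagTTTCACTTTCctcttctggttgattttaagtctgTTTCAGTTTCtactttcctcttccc
Oas3: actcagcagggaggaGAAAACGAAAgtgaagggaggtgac
Oas1a: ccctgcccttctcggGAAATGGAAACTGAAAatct
Gbp3: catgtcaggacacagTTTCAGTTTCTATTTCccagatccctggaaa
Bst2: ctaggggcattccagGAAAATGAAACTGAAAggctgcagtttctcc
Gbp7: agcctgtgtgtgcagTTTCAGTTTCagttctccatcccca
Irgm1: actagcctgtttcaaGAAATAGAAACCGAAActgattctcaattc
The core motif was not found in the promoters of the other 13 members in the table, *Adar*, *Cmpk2*, *Dtx3l*, *Ifi35*, *Ifi44*, *Ifi47*, *Ifit2*, *Isg20*, *Oasl1*, *Oasl2*, *Samhd1*, *Sp100* and *Xaf1*, which says only that these letters are not in those windows.

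The comparison of NSD1B KO with NSD1B WT asks which genes change in B cells without NSD1. Interferon-stimulated genes moved in both directions, and some were counted in a single genotype. Of the 40 genes, 39 had at least 1 count and 35 passed the filter on low counts. Among these 35, 16 were called higher and 13 lower in NSD1B KO by edgeR's quasi-likelihood test. A call needed more than a 1.2-fold difference and a p below 0.05 after Benjamini-Hochberg adjustment over all 11657 tested genes. The shares were 45.7% and 37.1%, against 37.1% higher and 41.1% lower among all tested genes. With both directions together, 82.9% of the tested members passed, against 78.2% of all tested genes, so passing was about as common among the members as elsewhere. When calls had to pass 1e-05 and differ by over 0.5 on the log2 scale, 13 members were higher and 11 lower, beside 57.2% of all tested genes in either direction.

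The 2 libraries of a genotype lay close together. Over the tested members the median absolute log2 ratio was 0.10 between the NSD1B WT libraries, 0.09 between the NSD1B KO libraries and 1.54 between the genotypes, where all tested genes gave 0.13, 0.15 and 1.11. These ratios were taken on log2(CPM + 0.5). In 34 of the 35 members the values of the genotypes did not overlap, against 88.1% of all tested genes. NSD1B KO was the higher in 19 of them (41.8% of all tested genes) and the lower in 15 (46.2%). Of the called members, 12 were more than 2-fold higher and 10 more than 2-fold lower, and 54.2% of all tested genes were called and past 2-fold. The median log2 fold change of the members was 0.25, against -0.10 over all tested genes, and it was 0.17 with library size alone as the scaling. After a correction for exon length and GC content the medians were 0.41 for the members and 0.02 for all tested genes. The 40 genes together took 0.178% and 0.181% of the counts in NSD1B WT and 0.241% and 0.235% in NSD1B KO. Abundant members, such as *Sp100* and *Samhd1*, weigh more in this share than the others.

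**Figure D2:**
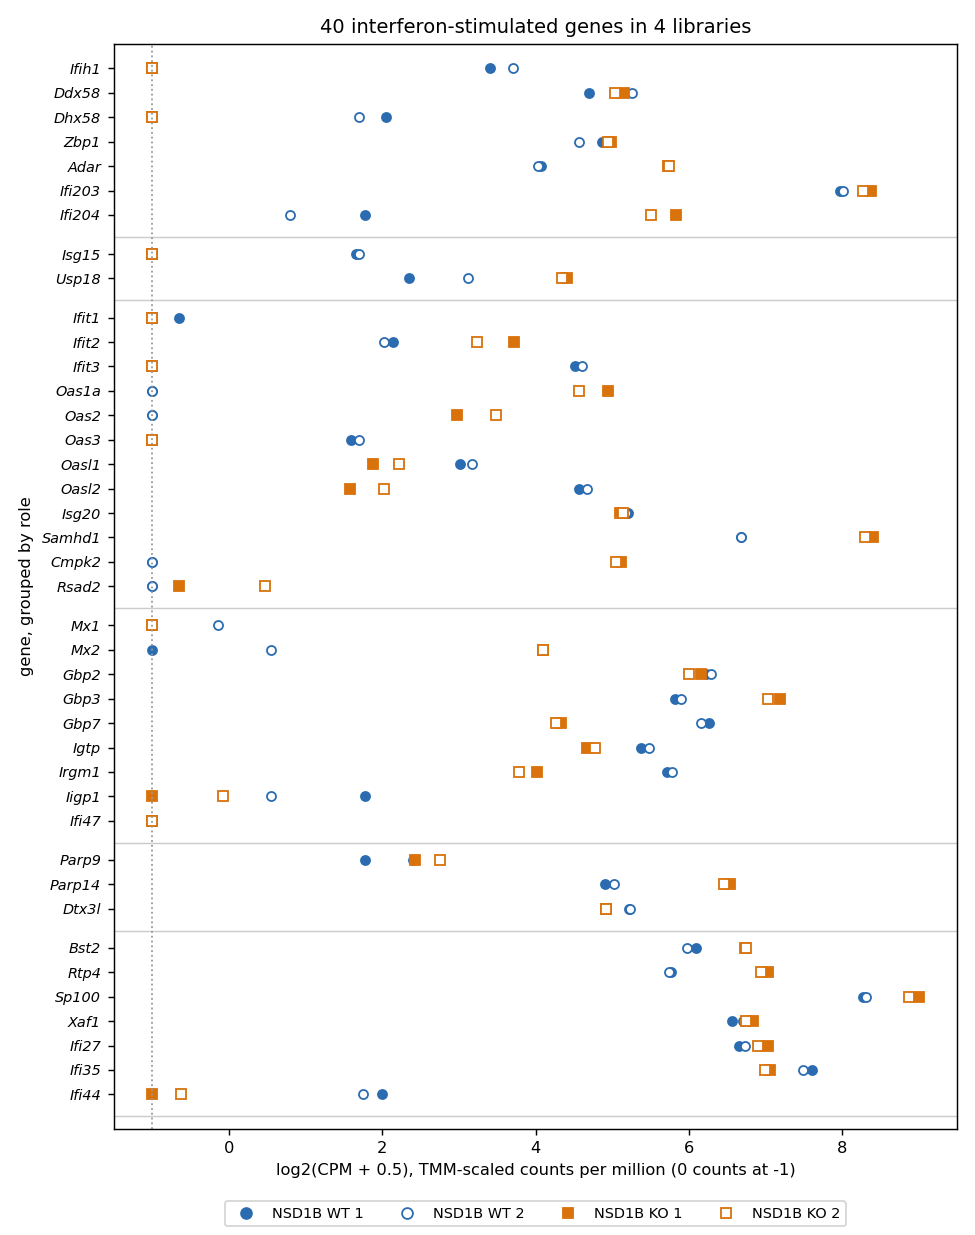
Level of each of the 40 genes in each library, as log2(CPM + 0.5) on the horizontal axis, with the genes grouped by role (circles NSD1B WT, squares NSD1B KO, dotted line 0 counts). In most rows the 2 points of a genotype lie close together and apart from those of the other genotype, and the side on which NSD1B KO lies changes from gene to gene within each role.

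Genes at 0 in a whole genotype form the extreme of this pattern. Of the 35 tested members, 3 had no count in NSD1B WT (8.57%, against 7.63% of all tested genes) and 5 had no count in NSD1B KO (14.3%, against 11.3%). The fold difference of such a gene is given as a minimum, computed against 3 counts over the 2 libraries of the genotype at 0, a limit that covers counting error only.

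**Figure D3:**
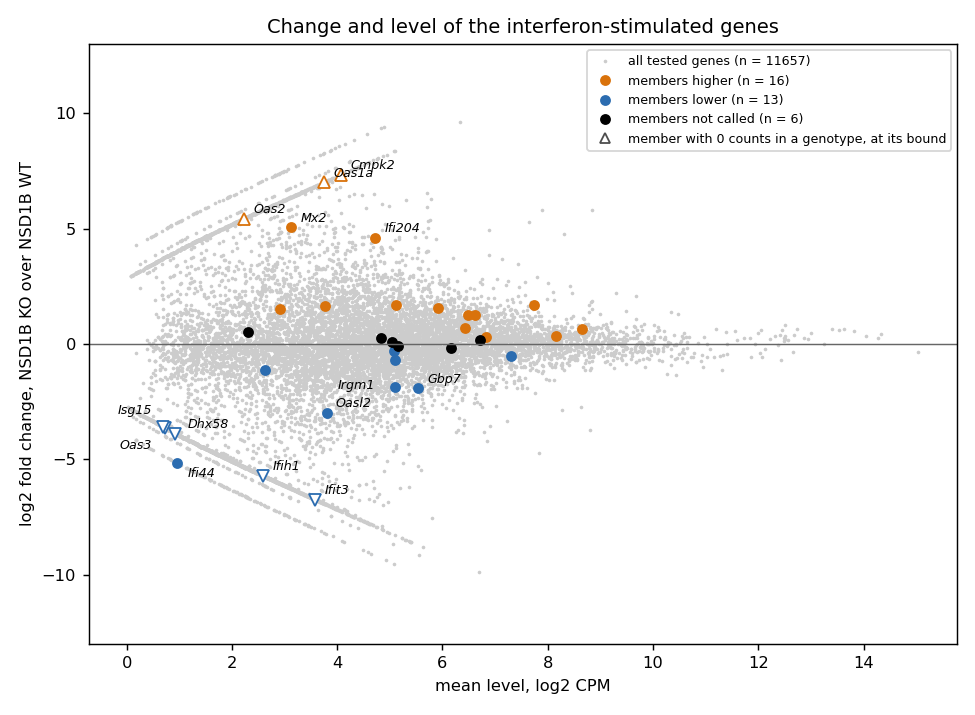
Log2 fold change of NSD1B KO over NSD1B WT (vertical axis) against mean level in log2 CPM (horizontal axis), with all 11657 tested genes in grey and 35 interferon-stimulated genes in colour. Open triangles stand at the lower limit for genes with 0 counts in a genotype, which lie at the edges of the cloud, and the other coloured points lie on both sides of 0.

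The sensors of foreign nucleic acids were the first functional group. *Ifih1*, which encodes MDA5, a sensor of long double-stranded RNA, had 72 and 92 counts in NSD1B WT and 0 and 0 in NSD1B KO, at least 52.65-fold lower (adjusted p = 1.01e-14, edgeR). *Dhx58*, which encodes LGP2, a partner of MDA5, went from 26 and 20 counts to 0 and 0, at least 14.77-fold lower (adjusted p = 7.23e-09, edgeR). The third sensor of this family did not follow them. *Ddx58*, which encodes RIG-I, the sensor of short RNA ends, had 182 and 276 counts in NSD1B WT and 253 and 218 in NSD1B KO, so the libraries of the genotypes overlapped. The log2 fold change, with its standard error (SE), was 0.10 (SE 0.15, adjusted p = 0.566), and its sign depended on the NSD1B WT library used. Without the first it was -0.13 and did not pass, and without the second it was 0.43 and passed (adjusted p = 0.0272, edgeR).

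*Adar*, which edits adenosines in double-stranded RNA and keeps MDA5 from sensing the cell's own transcripts, had 117 and 116 counts in NSD1B WT and 376 and 357 in NSD1B KO. It rose from 16.1 ± 0.357 to 52.7 ± 0.575 CPM (mean ± SD, n = 2 libraries), a log2 fold change of 1.71 (SE 0.14, adjusted p = 5.45e-15, edgeR). Its exons share 1365 nt with *Chrnb2* on the opposite strand, and the strand setting of the counting is not given in the sources used here. *Zbp1*, a sensor of left-handed nucleic acid that triggers cell death, had 204 and 169 counts against 225 and 203, at a log2 fold change of 0.25 (adjusted p = 0.123). It passed without the first NSD1B WT library, at 0.44 (adjusted p = 0.0323, edgeR), and after the length and GC correction, at 0.43.

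Of the PYHIN genes, a family of DNA-binding proteins that multiplied in mice, 2 are in the list and both were higher in NSD1B KO. *Ifi204* had 21 and 9 counts in NSD1B WT and 407 and 301 in NSD1B KO. Its level rose from 2.08 ± 1.21 to 50.7 ± 8.36 CPM (mean ± SD, n = 2), a log2 fold change of 4.60 (SE 0.23, adjusted p = 8.74e-23, edgeR). Of the windows of 50 nt in its longest transcript, 30.2% occur in transcripts of other genes, mostly *Ifi211*, so its reads can be split among copies. Leaving out a library gave log2 fold changes from 4.12 (without the second NSD1B WT library) to 5.37 (without the first). *Ifi203* was far more abundant, at 1789 and 1883 counts against 2382 and 2069, and rose by 0.33 on the log2 scale (SE 0.08, adjusted p = 0.000228, edgeR). That call was lost with library size alone (0.25) and after the length and GC correction (0.05).

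The ISG15 system was split between the tag and the enzyme that takes it off. *Isg15*, which encodes the ubiquitin-like tag, had only 19 and 20 counts in NSD1B WT and 0 and 0 in NSD1B KO, at least 12.52-fold lower (adjusted p = 2.28e-08, edgeR). *Usp18*, which encodes the protease that removes ISG15 and also blocks the type I receptor, had 33 and 60 counts in NSD1B WT and 150 and 133 in NSD1B KO. It rose from 6.41 ± 2.54 to 20.3 ± 0.761 CPM (mean ± SD, n = 2), a log2 fold change of 1.66 (SE 0.24, adjusted p = 1.64e-08, edgeR). The enzymes that attach ISG15 are named here after their values were seen. *Uba7*, the activating enzyme, fell by 2.24 and *Ube2l6*, the conjugating enzyme, by 1.44 on the log2 scale (adjusted p = 1.19e-08 and 5.29e-13, edgeR), whereas *Herc6*, the ligase, rose by 0.86 (adjusted p = 8.95e-06, edgeR). The tag and both early enzymes were thus lower and the ligase and the protease higher in NSD1B KO.

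Genes whose proteins bind or degrade RNA or act on nucleotides came out as 5 higher, 4 lower and 1 in neither direction among 10 tested of 12. These shares, 50% higher and 40% lower, stand beside 37.1% and 41.1% of all tested genes. The IFIT proteins bind viral RNA by its end. *Ifit2* had 28 and 26 counts in NSD1B WT and 91 and 60 in NSD1B KO, a log2 fold change of 1.53 (SE 0.30, adjusted p = 1.04e-05, edgeR). *Ifit3* had 160 and 175 counts in NSD1B WT and 0 and 0 in NSD1B KO, at least 107.5-fold lower by itself (adjusted p = 8.38e-20, edgeR). *Ifit1* had a single count in all.

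The value of *Ifit3* depends on a near copy. Of the 50 nt windows of its longest transcript, 51.2% also occur in *Ifit3b*, which lies nearby, beyond *Ifit1bl1*. *Ifit3b* had 0 and 1 counts in NSD1B WT and 228 and 203 in NSD1B KO. Added up, the 2 genes had 160 and 176 counts in NSD1B WT and 228 and 203 in NSD1B KO. Fitted as a single gene, a step chosen after the data were seen, the pair was higher in NSD1B KO, at a log2 fold change of 0.41 (SE 0.15, adjusted p = 0.0122, edgeR). The pair thus went the other way from *Ifit3* by itself. The sum gives the direction of the pair, and not that of *Ifit3* alone.

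The oligoadenylate synthetases, which switch on RNase L when they meet double-stranded RNA, were counted in 1 genotype each. *Oas1a* had 0 and 0 counts in NSD1B WT and 218 and 156 in NSD1B KO, at least 129.4-fold higher (adjusted p = 1.20e-20, edgeR). *Oas2* went from 0 and 0 to 53 and 72 counts, at least 43.26-fold higher (adjusted p = 2.56e-13, edgeR). *Oas3* went the other way, from 18 and 20 counts to 0 and 0, at least 12.2-fold lower (adjusted p = 2.82e-08, edgeR). *Oas1a* shares 57.6% of its windows with *Oas1g*, which had 0 counts in all 4 libraries, so the sum of the pair has the same values. Some of these windows also occur in *Oas1b*, named after its values were seen, which went the other way, from 28 and 19 counts in NSD1B WT to 0 and 0, at least 15.09-fold lower (adjusted p = 7.12e-09, edgeR). *Oas2* shared no window and *Oas3* 0.471% with other genes.

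The related *Oasl1* and *Oasl2*, which carry added ubiquitin-like domains, were both lower. *Oasl1* had 54 and 62 counts in NSD1B WT and 23 and 28 in NSD1B KO, a log2 fold change of -1.12 (SE 0.32, adjusted p = 0.00133, edgeR). *Oasl2* had 165 and 183 counts against 18 and 24, a log2 fold change of -2.99 (SE 0.25, adjusted p = 7.68e-15, edgeR). The libraries of the genotypes did not overlap for either gene, but the call of *Oasl1* was lost after the length and GC correction, at -0.68.

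Of the enzymes that act on nucleotides, *Samhd1*, which hydrolyses deoxynucleotides and so starves viruses of them, had 728 and 743 counts in NSD1B WT and 2421 and 2109 in NSD1B KO. It rose from 102 ± 0.170 to 325 ± 16.2 CPM (mean ± SD, n = 2), a log2 fold change of 1.68 (SE 0.09, adjusted p = 8.26e-23, edgeR). *Cmpk2*, a mitochondrial nucleotide kinase, had no count in either NSD1B WT library and 246 and 220 in NSD1B KO, at least 161.3-fold higher (adjusted p = 7.98e-23, edgeR). *Rsad2* encodes viperin, which turns CTP into a chain terminator, and lies next to *Cmpk2*. It stayed almost uncounted, at 0 and 0 against 1 and 6. *Isg20*, an exonuclease of RNA, had 260 and 261 counts against 244 and 233, at a log2 fold change of -0.07 (SE 0.13, adjusted p = 0.625, edgeR). It was called higher, at 0.41, after the length and GC correction.

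The large GTPases of cell-autonomous defence came out as 2 higher, 3 lower and 1 in neither direction among 6 tested of 9. That is 33.3% higher and 50% lower, against 37.1% and 41.1% of all tested genes. The guanylate-binding proteins coat the vacuoles of microbes. *Gbp3* had 400 and 430 counts in NSD1B WT and 1046 and 876 in NSD1B KO, a log2 fold change of 1.26 (SE 0.10, adjusted p = 2.76e-16, edgeR). *Gbp7* had 542 and 516 counts against 141 and 126, a log2 fold change of -1.93 (SE 0.13, adjusted p = 1.30e-18, edgeR). *Gbp2* had 528 and 569 against 510 and 427, at -0.17 (SE 0.10, adjusted p = 0.115, edgeR). These 3 neighbours thus gave 3 different outcomes. *Gbp7* shares 12.8% of its windows with other genes, mostly the pseudogene Gm43802, and *Gbp3* 4.79% with *Gbp7*.

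The immunity-related GTPases rupture or regulate such vacuoles, and the 2 tested members, *Irgm1* and *Igtp*, were lower. *Irgm1*, a regulator of the family, had 371 and 398 counts in NSD1B WT and 113 and 89 in NSD1B KO. It fell from 53.2 ± 1.79 to 14.5 ± 1.75 CPM (mean ± SD, n = 2), a log2 fold change of -1.87 (SE 0.15, adjusted p = 6.85e-16, edgeR). *Igtp*, also known as Irgm3, had 292 and 321 counts against 180 and 180, a log2 fold change of -0.71 (SE 0.14, adjusted p = 8.75e-06, edgeR). It shares 162 nt of exon with *Irgm2*. *Iigp1*, an effector of the family, was too low to be tested, with 21 and 7 counts against 0 and 3, a ratio of NSD1B KO to NSD1B WT of 0.111 (95% counting interval 0.0216 to 0.360). *Ifi47* had no count in any library, which allows up to 0.208 CPM in NSD1B WT and 0.216 in NSD1B KO.

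The MX proteins are dynamin-like GTPases that trap viral nucleoproteins, and laboratory strains such as C57BL/6J carry defective alleles of them. *Mx1* had 0 and 3 counts in NSD1B WT and none in NSD1B KO. *Mx2* had 0 and 7 counts in NSD1B WT and 120 and 112 in NSD1B KO, a log2 fold change of 5.06 (SE 0.43, adjusted p = 8.39e-15, edgeR). Both NSD1B KO libraries lay far above both NSD1B WT libraries, of which only the second held any count. Without the first NSD1B WT library the log2 fold change was 4.12, and without the second that genotype had no count left.

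The next group joins genes of ADP-ribosylation with a partner ubiquitin ligase. *Parp14*, a large ADP-ribosyltransferase that acts with STAT6 in B cells, had 210 and 233 counts in NSD1B WT and 664 and 587 in NSD1B KO, a log2 fold change of 1.55 (SE 0.11, adjusted p = 3.55e-17, edgeR). *Dtx3l*, a ubiquitin ligase that works as a complex with PARP9, had 263 and 272 counts against 214 and 200, a log2 fold change of -0.32 (SE 0.14, adjusted p = 0.0337, edgeR). That call did not hold without any 1 of the 4 libraries, where the adjusted p ran from 0.0601 to 0.119, or in DESeq2 (adjusted p = 0.147). *Parp9* had 21 and 35 counts against 35 and 42, at 0.52 (SE 0.35, adjusted p = 0.166, edgeR), and shares 458 nt of exon with *Dtx3l* on the opposite strand.

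The remaining genes were abundant, except *Ifi44*. *Bst2* encodes tetherin, which holds budding virions on the cell surface. It had 485 and 456 counts in NSD1B WT and 762 and 716 in NSD1B KO, a log2 fold change of 0.71 (SE 0.10, adjusted p = 8.80e-09, edgeR). *Rtp4*, a chaperone of membrane receptors that also restrains interferon signalling, had 385 and 386 counts against 939 and 824, a log2 fold change of 1.25 (SE 0.10, adjusted p = 5.68e-16, edgeR). *Sp100*, a component of nuclear bodies, had 2197 and 2304 against 3682 and 3155, a log2 fold change of 0.66 (SE 0.08, adjusted p = 2.46e-10, edgeR). For these 3 genes the lowest NSD1B KO library lay above the highest NSD1B WT library.

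*Ifi35*, which interacts with the STAT partner NMI, had 1383 and 1312 counts in NSD1B WT and 958 and 852 in NSD1B KO. It fell by 0.52 on the log2 scale (SE 0.09, adjusted p = 4.09e-07, edgeR), or by 0.19, below the fold limit, after the length and GC correction. *Ifi27*, a mitochondrial protein, had 713 and 772 counts against 939 and 798, a log2 fold change of 0.28 (SE 0.09, adjusted p = 0.00524, edgeR) that was under the fold limit in 4 alternatives, at 0.20 with library size alone and 0.21 without the first NSD1B KO library. *Xaf1*, which opposes the apoptosis inhibitor XIAP, had 673 and 761 against 819 and 719, at 0.15 (SE 0.09, adjusted p = 0.123, edgeR). *Ifi44* had 25 and 21 counts against 0 and 1, a ratio of NSD1B KO to NSD1B WT of 0.0226 (95% counting interval 0.000559 to 0.132).

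The order of levels was compared per length, as CPM per kilobase of exon. In NSD1B WT the highest were *Ifi35* at 108, *Bst2* at 72.1 and *Ifi27* at 70.0, and in NSD1B KO *Bst2* at 118, *Ifi27* at 84.9 and *Ifi35* at 75.2. By contrast *Isg15*, one of the most strongly induced genes in stimulated cells, stood at 3.57 in NSD1B WT.

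Many of the members lie side by side in the genome, and 20 of the 40 have another member as a neighbour within 200 kb (mm10, GENCODE M21). On chromosome 5, *Oas2* (120730333 to 120749853) and *Oas3* (120753098 to 120777661) are 3.2 kb apart on the same strand, and the first was counted in NSD1B KO and the second in NSD1B WT. On chromosome 19, *Ifit2* (34550694 to 34576419) ends 7.1 kb before *Ifit3* (34583531 to 34588731). On chromosome 3, *Gbp7* (142530342 to 142550149) ends 9.9 kb before *Gbp3* (142560026 to 142573209). In the *Oas* and *Gbp* pairs the neighbours moved in opposite directions. *Ifit2* and *Ifit3* did so by their own counts, but the sum of *Ifit3* and *Ifit3b* was on the side of *Ifit2*. In 2 pairs both neighbours moved the same way, *Oasl2* with *Oasl1*, 11.0 kb apart on chromosome 5, and *Ifi204* with *Ifi203*, 153.5 kb apart on chromosome 1. *Rsad2* and *Cmpk2* lie 12.8 kb apart on chromosome 12 on opposite strands, and only *Cmpk2* was counted to any extent.

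**Figure D4:**
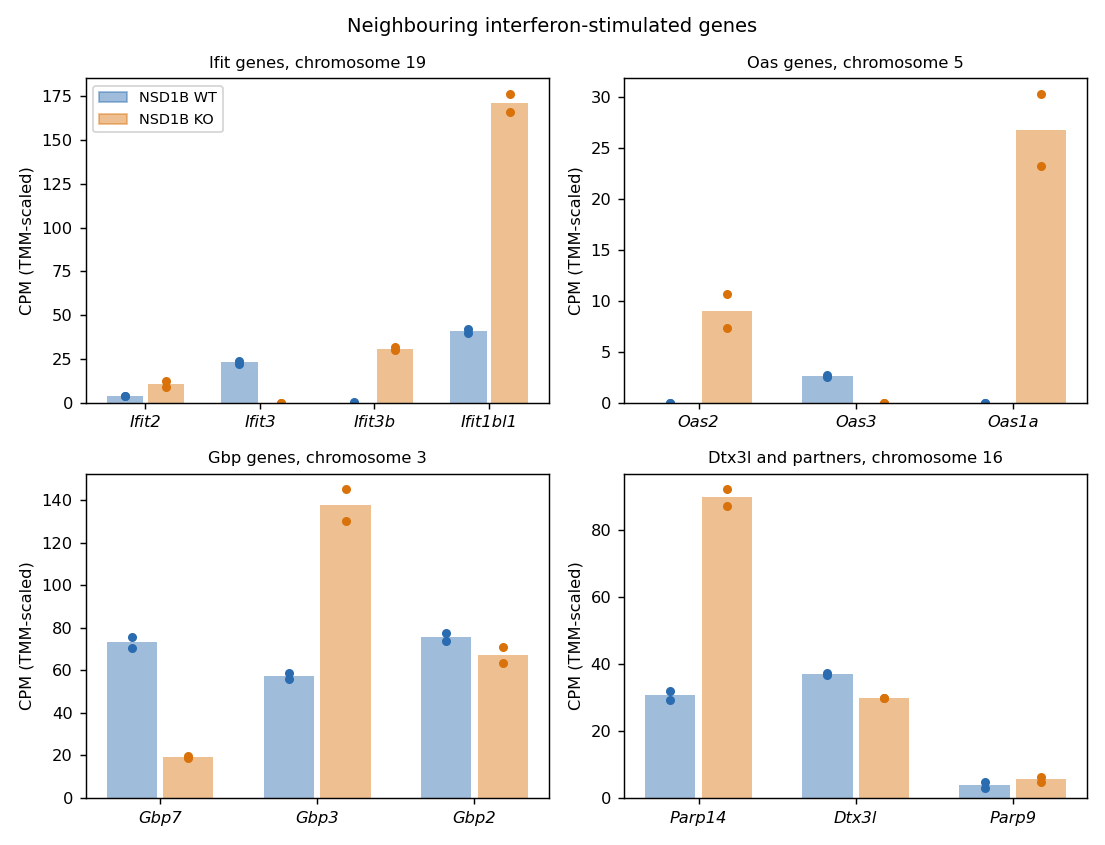
CPM of neighbouring genes in 4 regions, with bars for the mean of 2 libraries and points for each library (blue NSD1B WT, orange NSD1B KO). Within each region some genes are higher and others lower in NSD1B KO, and *Ifit3* and its near copy *Ifit3b* are each counted almost wholly in a single genotype.

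The genes that carry the interferon signal were examined next, from a list of 49 symbols, of which 47 were in the files and 37 were tested. In NSD1B KO 15 were higher and 14 lower, together 78.4%, against 78.2% of all tested genes. Of 8 interferon genes, the 7 of type I had no count in any library. *Ifng*, named after its values were seen, encodes interferon gamma, a product of T and NK cells, and had 0 and 0 counts in NSD1B WT and 41 and 35 in NSD1B KO, at least 26.3-fold higher (adjusted p = 5.13e-11, edgeR). Beside it, the 6 NK cell markers summed to 56.5 and 59.9 CPM in NSD1B WT and 86.4 and 83.2 in NSD1B KO. *Ncr1*, *Gzma* and *Eomes* were at 0 in all libraries. Most of the sum was *Nkg7*, which was higher in NSD1B KO (log2 fold change 0.55), as was *Klrk1* (3.34). *Klrb1c* went the other way, from 26 and 21 counts in NSD1B WT to 0 and 0. The 8 T cell markers summed to 84.4 and 80.3 against 83.8 and 78.8 CPM, with *Cd4* and *Cd8a* at 0. Within that sum *Cd3d* and *Cd3g* were higher (log2 fold changes 0.93 and 1.07) and *Trac* and *Lat* lower (-1.29 and -1.88). The part of such cells in the value of *Ifng* was not tested.

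The receptor chains changed unequally. *Ifnar1*, a chain of the type I receptor, had 209 and 188 counts in NSD1B WT and 43 and 35 in NSD1B KO, which is 27.5 ± 2.50 and 5.59 ± 0.547 CPM (mean ± SD, n = 2). On the log2 scale it fell by 2.29 (SE 0.21, adjusted p = 1.49e-13, edgeR). Its partner *Ifnar2* had 118 and 113 counts against 167 and 190, a log2 fold change of 0.68 (SE 0.17, adjusted p = 0.000438, edgeR). *Ifngr1*, the ligand-binding chain for interferon gamma, had 499 and 517 counts against 2236 and 2076, a log2 fold change of 2.14 (SE 0.09, adjusted p = 2.41e-26, edgeR). *Ifngr2* was nearly uncounted, at 1 and 1 against 9 and 11.

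Below the receptors, *Jak1* had 1546 and 1582 counts against 1676 and 1508, at a log2 fold change of 0.08 (adjusted p = 0.370, edgeR), and *Tyk2* rose by 0.86 (adjusted p = 0.00181, edgeR). Of the factor that binds the ISRE, *Irf9* was lower and *Stat2* passed in neither direction. *Stat2* had 101 and 94 against 86 and 74, at -0.23 (SE 0.22, adjusted p = 0.329, edgeR). *Irf9* had 668 and 753 against 312 and 296, a log2 fold change of -1.17 (SE 0.11, adjusted p = 4.76e-14, edgeR).

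Of the other factors, *Irf7*, which amplifies type I interferon, fell by 0.85 and *Irf1*, a target of interferon gamma, fell by 0.54 on the log2 scale (adjusted p = 0.000501 and 3.61e-05, edgeR), and both calls were lost after the length and GC correction (-0.42 and -0.26). The largest rise in the list among genes of at least 3 log2 CPM was that of *Trim25*, a ubiquitin ligase that activates RIG-I, with 5 and 10 counts in NSD1B WT and 558 and 535 in NSD1B KO (log2 fold change 6.22, SE 0.22, adjusted p = 7.36e-29, edgeR). *Tlr3*, an endosomal sensor of double-stranded RNA, went from 148 and 140 counts to 0 and 0, at least 92.46-fold lower (adjusted p = 1.19e-18, edgeR). *Cgas*, the cytosolic sensor of DNA, named after its values were seen, went from 0 and 0 counts to 76 and 76, at least 52.61-fold higher (adjusted p = 1.11e-14, edgeR). *Pias1*, a SUMO ligase that restrains interferon signalling, fell by 1.64 on the log2 scale (SE 0.09, adjusted p = 3.06e-21, edgeR).

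**Figure D5:**
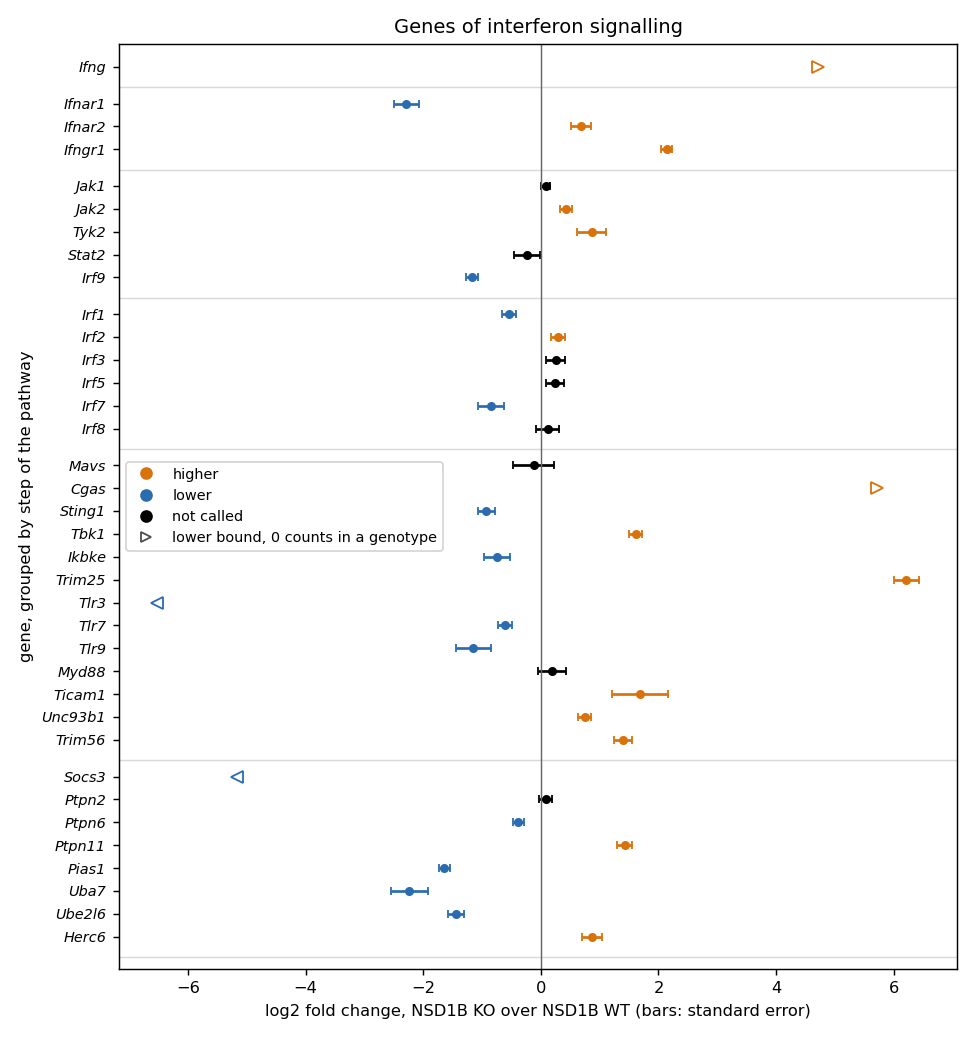
Log2 fold change of NSD1B KO over NSD1B WT (horizontal axis) for 36 genes of interferon signalling, grouped from ligands and receptors to inhibitors, with bars for the standard error and open triangles for lower limits of genes with 0 counts in a genotype. Genes on both sides of 0 stand in each group from the receptors to the inhibitors.

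A further list of 84 genes known to be induced by interferon was counted in the same way. Of 75 tested, 30 were higher and 34 lower in NSD1B KO (85.3%, against 78.2% of all tested genes), and their median lay at -0.08 on the log2 scale. By the order of fitted values at 3 log2 CPM or more, which does not measure the size of a change where a genotype is at or near 0, the first on the higher side were *Parp10*, with 0 and 0 counts in NSD1B WT and 200 and 193 in NSD1B KO, *Ifit3b*, whose sum with *Ifit3* rose by only 0.41 on the log2 scale, and *Ifi208*, with 8 and 8 against 830 and 612. The first on the lower side were *Tdrd7*, with 182 and 185 counts in NSD1B WT and 0 in NSD1B KO, *Gbp4*, with 145 and 139 against 0, and *Lgals3bp*, with 108 and 164 against 0. *Tor3a*, named after its values were seen, had 226 and 269 counts against 3 and 0, so these genes are not shown to have fallen more than it did. Genes of the interferon response outside the 40 members thus also stood on both sides.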

How the data were processed

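RNA of B220+ B cells was sequenced in 4 libraries, for which the authors deposited raw read counts on genes, as whole numbers without normalization. Per the submitters' processing notes, Bowtie2 and the genome mm10 were used for mapping. The tables end in rows that name no gene (reads on no gene were 44.3% to 44.6% of a library), which were left out. No source used here gives the counter, its strand setting or the annotation, and the FPKM values that the Methods describe were not used here.

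Libraries were scaled by TMM and tested with edgeR 4.0.16 (R 4.3.3), after filterByExpr (minimum count 10, minimum total 15). Calls took the study's limits, a 1.2-fold difference and p below 0.05, with p taken after adjustment. The standard error is the log2 fold change divided by the root of F. The common dispersion was 0.0054. No permutation test was made, since 2 libraries against 2 cannot reach 0.05. Intervals and limits cover counting error only. Positions, lengths and shared sequence come from GENCODE M21, whose gene identifiers matched 99.5% of those in the files. The procedure was tested on simulated data.

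Members and lists were chosen with earlier results of these data known. Values in each library are given for members whose mean log2 CPM is 3 or more, for members at 0 in 1 genotype with at least 50 counts over the other, and for other members chosen after their values were seen. Other genes named are set receptors and factors, and the 3 largest changes per list and direction at that level. A gene of the pathway list is counted but not reported here. Alternatives were other scalings, DESeq2 1.42.0, limma-voom 3.58.1, other filters, a stricter threshold, each library left out, the replicate number as a block, and a correction for exon length and GC content (a loess curve removed, span 0.5), alone and with the block. Counting *Ifit3* and *Ifit3b* together was added after the data were seen.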

Additional observations from a re-analysis of the deposited data

How the results depend on the processing

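Of 481 values of single members under the alternatives, 456 kept their direction and their side of the threshold, 17 lost the call, 4 gained it and 4 changed sign. These 4 were *Ddx58*, which passed in neither the main test nor at -0.13 without NSD1B WT replicate 1 (0.43 without NSD1B WT replicate 2, with a call), *Isg20*, at 0.41 after the length and GC correction and also at 0.41 with that correction and the replicate block, and *Ifit3*, at 0.41 when counted with *Ifit3b*. Of the pathway genes named, *Stat2*, not called, went from -0.23 to 0.00 after the length and GC correction. A filter of 1 CPM in all 4 libraries leaves out every gene at 0 in a genotype. With it, 7 of 25 tested members and 21 of 56 tested further interferon-induced genes were lower. The main test gave 13 of 35 and 34 of 75. Over the whole table this filter left 2855 genes higher and 2991 lower of 8334 tested, where the main test gave 4324 and 4795 of 11657. The stricter threshold left 8 genes of the interferon pathway lower instead of 14. The members' median log2 fold change moved from 0.25 to 0.17 with library size alone, to 0.17 with a filter of 1 count in any library, which adds 4 members, and to 0.41 after the length and GC correction, with or without the replicate block. The cause of the shift with length and GC was not tested. With each library left out in turn the median lay between 0.21 and 0.34, members higher between 15 and 17, members lower at 12, and *Nsd1* between -0.78 and -0.67. A left-out library leaves a genotype with 1 sample, which is then assumed to vary like the other genotype.

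The replicate block gave 16 members higher and 13 lower, as without it, and moved none of the other counts by over 1.5 times. Differences between replicates 1 and 2 correlated at 0.065 between the genotypes, so the numbers were not taken as pairs. Depth limits the members under 3 log2 CPM, 9 of the 35 tested, and the 5 that were not tested.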
